A study of Mus musculus with 9 samples.

Results

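Cathepsins are proteases that work mostly inside lysosomes, the acidic compartments in which cells digest proteins and lipid particles. They are made as inactive precursors, sorted to lysosomes and activated there, and inhibitor proteins hold those that escape. In fat tissue they are best known from macrophages, which take up dying adipocytes and their lipid, and some cathepsins also cut matrix proteins outside the cell. The set described here holds 9 of the 32285 genes counted, picked by symbol: the serine carboxypeptidase Ctsa, the aspartic protease Ctsd, and the papain-like cysteine proteases Ctsb, Ctsc, Ctsh, Ctsk, Ctsl, Ctss and Ctsz. All 9 had UMIs (unique molecular identifiers, a tag for each RNA molecule caught) in every library.

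The libraries were made by droplet sequencing of nuclei from epididymal fat, a visceral depot, of C57BL/6J males. All 9 diet groups had 1 library each, made from the pooled nuclei of 5 mice, so no group has replicates, no difference between groups could be tested, and no value has an error between mice. Intervals below are 95% intervals of counting error only: exact Poisson for levels, exact conditional for ratios. The 3 control groups stayed on the diet that the labels call chow and were 18 (C), 26 (CC) and 39 weeks old (CCC). By the study's methods the control diet of the first phase was a low-fat diet. H mice had eaten high-fat diet for 12 weeks (age 18 weeks) and HH mice for 25 weeks (age 31 weeks). HC and HHC mice had the same 12 and 25 weeks of high-fat diet and then lost weight on chow for 8 weeks (ages 26 and 39 weeks). CCH mice met high-fat diet for the first time in their last 4 weeks after 26 weeks on chow, and HCH mice met it again for 4 weeks after 12 weeks of high-fat diet and 8 of chow (both aged 30 weeks). H was set against C, HH against CC, HC against CC, HHC against CCC and HCH against CCH. HH and CC differ in age and in the sequencing set named in their labels, and the other 4 pairs share both.

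Nuclei were put into classes by marker genes that include no cathepsin, and a class name ending in "-like" rests on those markers alone. After filtering, 4007 (CC) to 11908 nuclei (HH) were kept per library. They held 11983367 (CCC) to 29895678 UMIs (C) without mitochondrial genes and Malat1. Before filtering, all barcodes of a library held 22599619 (CCC) to 66615262 UMIs (HHC). The macrophage-like class held 298 nuclei in CCC, 523 in CC and 1313 to 5781 in the other 7 libraries. Its 19 markers summed to between 4741 (CC) and 16751 CPM (UMIs of a gene per 1000000 UMIs of the class; HHC) in macrophage-like nuclei and between 473 (CCC) and 2709 CPM (HHC) in adipocyte-like nuclei. Libraries CC and CCC stood apart. In CC the 12 adipocyte markers reached 7804 CPM in macrophage-like nuclei, against 830 to 2725 CPM in the other 8 libraries. In CCC, 71.0% of the nuclei fitted no class, and these include a cluster of 94 nuclei led by Mmp12, Gpnmb and Atp6v0d2, genes of lipid-associated macrophages, which stayed unnamed because it held adipocyte markers as well (8486 CPM). The macrophage-like class of CCC therefore lacks it. Unnamed clusters held nuclei with macrophage markers in other libraries too. With such clusters added the class would hold 4225 nuclei in place of 2810 in HHC, and 3757 in place of 3289 in HCH. Pairs of libraries shared 8 to 55 barcodes, at most 0.493% of the smaller library.

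In the GENCODE vM21 annotation of GRCm38, all 9 are protein-coding genes. Ctsa lies at chr2:164832873-164841032 on the plus strand and Ctsz at chr2:174427493-174439039 on the minus strand. Ctsk (chr3:95499256-95509362) and Ctss (chr3:95526786-95556403) lie close together on the plus strand of chromosome 3. Ctsc (chr7:88278085-88310888, plus) and Ctsd (chr7:142375911-142388038, minus) are on chromosome 7, Ctsh is at chr9:90054152-90076089 (plus), Ctsl at chr13:64359337-64370890 (minus) and Ctsb at chr14:63122462-63145923 (plus). On the same strand the annotation also has Gm49369, which overlaps Ctsd, and processed pseudogenes within Ctsl (Gm49230) and Ctss (Hmgb1-ps5). None of the 3 is among the genes counted, so the values of Ctsd, Ctsl and Ctss may hold reads of those models.

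Lysosomal genes often carry an E-box that the factors TFEB and TFE3 can bind, so the promoters of the members were searched for it. RefSeq promoter windows of 300 bases (GRCm38.p6, from 250 bases before the start site to 50 from it) were at hand for 7 of the 9 members, in 8 windows. Ctsb and Ctsh had none. Motifs were searched on both strands. The letters CACGTG occurred in 3 of the 8 windows and in 7.15% of all 32851 windows. The longer TCACGTGA, which contains CACGTG, occurred in 2 of the 8 and in 0.974% of all. The AP-1 motif TGANTCA occurred in none of the 8 (7.81% of all), and GAGGAA, a core of the myeloid factor PU.1, in 3 (28.3% of all). The windows with TCACGTGA were those of Ctsd and of the inner start site of Ctsa, and Ctsl had CACGTG alone. The windows of Ctsc, Ctsk, Ctss and Ctsz had neither. Each stretch of 30 bases around an E-box is shown on the strand of the gene, with CACGTG or TCACGTGA in capitals.
Ctsa, chr2:164833757-164833786, plus: ctgTCACGTGAtgcagatgcTCACGTGAcc
Ctsd, chr7:142387908-142387937, minus: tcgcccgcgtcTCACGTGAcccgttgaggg
Ctsd, chr7:142388048-142388077, minus: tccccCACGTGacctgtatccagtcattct
Ctsl, chr13:64370739-64370768, minus: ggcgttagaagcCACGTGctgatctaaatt
Both Ctsa copies lie at the start site, from bases -13 and 5 counted from it. The full Ctsd copy begins at base -99. GAGGAA was found for Ctsc, Ctsk and Ctss, which include the member that differed most upwards and the member that was lower. A match of letters is a description and does not show that a factor binds there.

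Most cathepsins were several-fold higher in macrophage-like nuclei of mice that had been fed high-fat diet for 12 or 25 weeks, whether or not they had lost the weight again. In H against C, 7 of the 9 members were at least 2-fold higher in macrophage-like nuclei (28.3% of the 14953 genes with at least 20 UMIs over both libraries were). HH had 8 of 9 at least 2-fold above CC (28.3% of all genes), and HC had 6 (10.6%). HHC had 7 above CCC (16.0%), and HCH had 7 above CCH (18.0%). The median log2 ratio of the members was 2.16 in H against C and 3.05 in HH against CC, beside medians of 0.28 and 0.29 over all genes. After weight loss it was 1.74 in HC against CC and 2.65 in HHC against CCC (all genes: -0.06 and 0.10), and it was 1.77 in HCH against CCH (all genes: 0.20). The 6 members Ctsb, Ctsd, Ctsk, Ctsl, Ctss and Ctsz were higher in each of the 5 libraries with 12 or 25 weeks of high-fat diet behind them than in any of the 4 others, as were 11.0% of all genes.

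**Figure D1:**
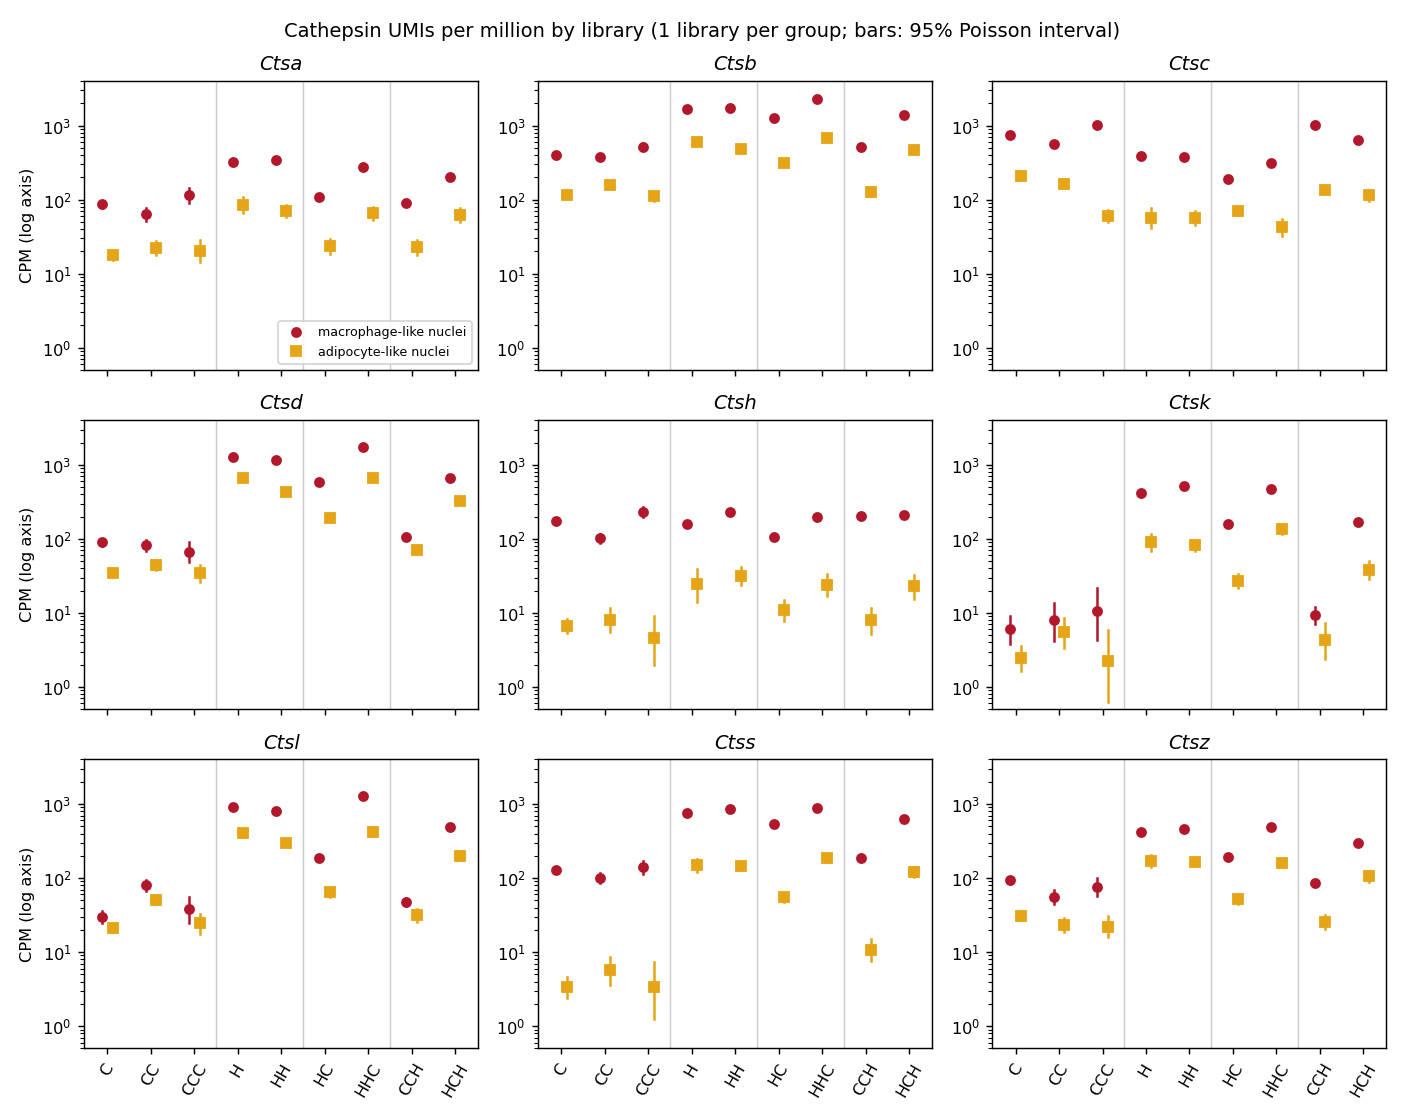
Level of each cathepsin (CPM, log axis) in macrophage-like nuclei (circles) and adipocyte-like nuclei (squares) of the 9 libraries, with exact Poisson 95% intervals, and grey lines between chow, obese, weight-loss and 4-week groups. In macrophage-like nuclei Ctsd lies between 66.9 and 106 CPM in C, CC, CCC and CCH and between 588 and 1715 CPM in the other 5 libraries, while Ctsc runs the other way.

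Ctsd, the main aspartic protease of lysosomes, stood at 90.1 CPM in macrophage-like nuclei of C, 82.4 in CC and 66.9 in CCC. It reached 1289 CPM in H, 1154 in HH, 588 in HC and 1715 in HHC. The first 4 weeks of high-fat diet came with 106 CPM (CCH), and the same 4 weeks in mice with earlier obesity with 670 CPM (HCH). The chow libraries and CCH thus formed a low group that did not overlap the 5 others. Ctsd was 14.3 times as high in H as in C (log2 ratio 3.84, interval 3.68 to 4.00) and 25.6 times as high in HHC as in CCC (log2 4.68, 4.25 to 5.14). The second value was 3.08 with all libraries clustered together, and that of Ctsl in the same comparison was 3.18 in place of 5.06. The unnamed cluster of CCC had 1142 CPM of Ctsd. With nuclei of such clusters added to the class in every library, an alternative chosen after seeing the data, HHC against CCC gave log2 2.72 for Ctsd (283 CPM in CCC), 3.94 for Ctsl and 3.96 in place of 5.46 for Ctsk. Ctss became 1.77 in place of 2.65 and Ctsz 1.60 in place of 2.70. The count of members at least 2-fold higher stayed at 7, and the same 6 members were higher in each of the 5 libraries than in the 4 others. Shares of all genes are given for the original class only, so these counts cannot be set beside a share of the widened class. Ctsa, which also shields partner enzymes in the lysosome from breakdown, differed less: 86.4 CPM in C against 320 in H, and 63.5 in CC against 340 in HH. HC had 110 CPM of it, 1.73 times the level of CC and below the 116 CPM of CCC, and HHC had 275 CPM.

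Among the endopeptidases, Ctsk, a strong collagenase best known from bone-resorbing osteoclasts, differed most. It was near the counting limit on chow, with 6.04 CPM in C (23 UMIs), 7.94 in CC (13 UMIs) and 10.6 in CCC (7 UMIs), and stayed there in CCH (9.37 CPM). H had 410 CPM, HH 513, HC 156, HHC 469 and HCH 170, so the groups did not overlap. These are 67.9 times the level of C in H (log2 6.09, 5.50 to 6.74; 5.19 without the upper limit on genes per nucleus) and 19.7 times that of CC in HC (log2 4.30, 3.52 to 5.22). Ctsl, a broad endopeptidase, rested at 30.2 to 79.4 CPM in the 4 low libraries and reached 901 CPM in H and 1268 in HHC. Of the members it stood furthest below H in HC, at 186 CPM or 0.206 times the level of H. Its 2-fold call in HC against CC (log2 1.23) was lost when all libraries were clustered together (0.60) or doublets were kept (0.80), and it was higher without the upper limit on genes (2.03) and with C in place of CC (2.62). Ctss, which trims the invariant chain for antigen presentation, had 128 CPM in C and 764 in H, and HC still had 542 CPM. Ctsb, an abundant endopeptidase that also cuts single dipeptides from chain ends, ran from 375 CPM (CC) to 2305 CPM (HHC), with 1249 CPM in HC.

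The exopeptidases differed in direction. Ctsz, a carboxypeptidase, went with the endopeptidases, at 93.5 CPM in C, 419 in H and 494 in HHC. Ctsh, mainly an aminopeptidase, differed little over the class in H against C (157 against 175 CPM) and was higher in HH than in CC (232 against 101 CPM). The second ratio (log2 1.19) was 0.40 when HH was set against C instead, and 0.26 with classes from single nuclei alone. Ctsc, the dipeptidyl peptidase that activates serine proteases of leukocyte granules, was lower after 12 or 25 weeks of high-fat diet. The 3 chow libraries had 748 (C), 568 (CC) and 1021 CPM (CCC), and CCH had 1004. H had 393 CPM, HH 375, HC 188, HHC 311 and HCH 634, and the groups overlapped through HCH and CC. All 5 ratios were below 1, and 2 of them were at least 2-fold: HC against CC (log2 -1.60, -1.74 to -1.46), where 14.7% of all genes were 2-fold lower, and HHC against CCC (log2 -1.72, -1.84 to -1.59), where 9.26% were. The second rests on the thin CCC class and was -0.28 when all libraries were clustered together.

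In HC every member was lower than in H in macrophage-like nuclei, from 0.206 times (Ctsl) to 0.735 times (Ctsb), as were 65.1% of all genes, and 6 members still stood at least 2-fold above CC. In HHC, Ctsl, Ctsd and Ctsb were 1.59, 1.49 and 1.35 times as high as in HH, and Ctss (1.03), Ctsz (1.07) and Ctsk (0.914) were close to it. Ctsa (0.808), Ctsc (0.829) and Ctsh (0.850) were lower in HHC than in HH. H and HC, and HH and HHC, come from different sequencing sets and ages, which cannot be told apart from weight loss in these direct ratios. After 4 weeks of high-fat diet as the first exposure (CCH), no member reached 2-fold above CC in macrophage-like nuclei (7.90% of all genes did). Ctsh came closest (202 against 101 CPM), and Ctsl was lower (47.7 against 79.4 CPM). CC and CCH also differ in age and sequencing set.

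**Figure D2:**
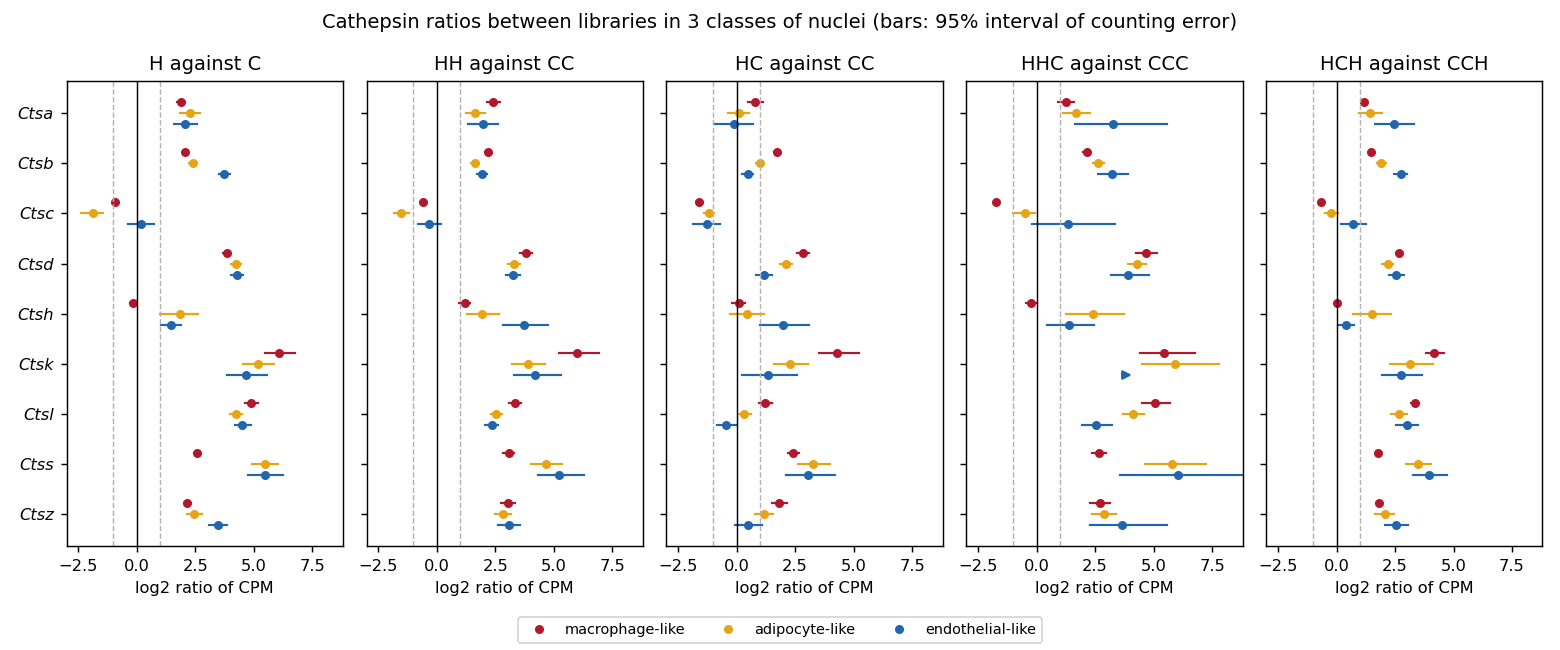
Log2 ratios of CPM for the 9 cathepsins in the 5 comparisons, in macrophage-like (red), adipocyte-like (yellow) and endothelial-like nuclei (blue), with exact 95% intervals of counting error; dashed lines mark 2-fold, and the arrow is a lower bound (no UMI of Ctsk in endothelial-like nuclei of CCC). Ctsk, Ctsd and Ctss lie to the right of 2-fold in the 3 classes in every comparison, and Ctsc lies left of 0 in macrophage-like and adipocyte-like nuclei.

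The macrophage-like nuclei were of different kinds in the 2 sets of libraries. LAM-like nuclei had at least 3 markers of lipid-associated macrophages (Trem2, Gpnmb, Spp1 and others), the foam-like cells of obese fat. They also had more of these markers than of any other kind. LAM-like nuclei made up 0 to 1.28% of macrophage-like nuclei in the chow libraries and CCH. The 0 is that of CCC, where naming left out the cluster described above, of whose nuclei 40 were LAM-like by this rule. With unnamed clusters of this type added the share in CCC was 8.77%. In CCH a named cluster of 100 nuclei was led by the same genes, and 23 of its nuclei counted as LAM-like. C had a named cluster of 41 nuclei led by Atp6v0d2, St18, Gpnmb and Mmp12, and 13 LAM-like nuclei in all. In the other 5 libraries the LAM-like share was 67.8% (H), 49.7% (HH), 53.2% (HC), 69.2% (HHC) and 25.5% (HCH). Perivascular-macrophage-like nuclei (PVM-like; Lyve1, Cd163, Mrc1 and others) made up 62.0 to 77.9% in the former and 7.47 to 21.5% in the latter. Levels were therefore also read within a kind.

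Ctsc separated the kinds. In H it was at 192 CPM in LAM-like nuclei, against 1215 in PVM-like nuclei and 884 in nuclei with markers of antigen presentation (NPVM-like, for non-perivascular macrophages). The log2 ratio of LAM-like to PVM-like nuclei was -2.66 (-2.76 to -2.57) in H and lay between -2.89 (HC) and -1.93 (HHC) over the 5 libraries with many LAM-like nuclei. Within PVM-like nuclei Ctsc was higher, not lower, in H than in C (1215 against 849 CPM, log2 0.52, 0.43 to 0.61), and within NPVM-like nuclei likewise (884 against 403 CPM, log2 1.13, 0.91 to 1.36). The direction of Ctsc in H against C was thus opposite within these kinds and over the whole class. In HC against CC and HHC against CCC it stayed lower within PVM-like nuclei (log2 -0.46 and -0.64), and the intervals within NPVM-like nuclei held 0 (-0.08, -0.56 to 0.41, and -0.38, -0.77 to 0.03). HH against CC gave 0.17 and 0.63 for the 2 kinds, both higher. The direction depended on the control library. PVM-like nuclei of HH had 718 CPM, above CC (639) and below C (849) and CCC (1071). NPVM-like nuclei of HH had 655 CPM, above CC (423) and C (403) and below CCC (921). In HCH against CCH the kinds went in opposite directions, at -0.15 (-0.21 to -0.08) in PVM-like and 0.26 (0.15 to 0.37) in NPVM-like nuclei. Ctsh was also lower in LAM-like than in PVM-like nuclei, with log2 ratios of -1.27 in H and -0.41 in HHC at the ends of the 5 libraries. Within a kind it was higher in H than in C, at log2 0.71 (0.51 to 0.90) in PVM-like and 0.97 (0.61 to 1.34) in NPVM-like nuclei. HH against CC gave 1.45 and 1.70 for these kinds.

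Within PVM-like nuclei 7 members, without Ctsc and Ctsh, were at least 2-fold higher in H against C, as were 17.5% of all genes. In HC against CC 3 were (5.14%), beside 6 over the whole class: Ctsd, Ctsk and Ctss, with Ctsb (log2 0.93), Ctsz (0.92) and Ctsa (0.50) short of 2-fold. In HHC against CCC, Ctsd (log2 3.83), Ctsl (3.76), Ctsk (3.65), Ctsz (1.94) and Ctss (1.88) were over 2-fold higher. So was Ctsb (1529 against 541 CPM), and Ctsa (0.69), Ctsh (0.06) and Ctsc (-0.64) were not. Ctsk had 7 UMIs in CCC. In HCH against CCH the same members as in HHC passed 2-fold, from Ctsb (1.07) to Ctsk (3.26). In HH against CC all but Ctsc (0.17) did. Shares of all genes were not computed for HHC, HCH and HH. Ctsd was 1167 CPM in PVM-like nuclei of H against 76.4 in those of C, and 281 in HC against 81.5 in CC. Ctsk was 144 CPM in PVM-like nuclei of H against 3.57 in C (log2 5.34, 4.43 to 6.42), and Ctsl 699 against 28.2. Ctsl did not differ beyond counting error between HC and CC in these nuclei (90.3 against 84.9 CPM, log2 0.09, -0.38 to 0.55). In the same H library endothelial-like nuclei held 1466 CPM of Ctsd and 991 of Ctsl, both above the PVM-like levels, and the part of RNA carried over from LAM-like nuclei in the PVM-like values was not tested. Within a library, LAM-like nuclei of H were close to PVM-like nuclei in Ctsa, Ctsb and Ctsz (log2 0.11, 0.07 and 0.07). They stood above them in Ctsk (log2 1.77) and Ctss (0.66). After weight loss the gap between the kinds was wider for Ctsd, at log2 1.46 in HC and 1.03 in HHC, against 0.17 in H and 0.37 in HH. It was wider as well for Ctsb (1.00 and 0.74 against 0.07 and 0.26) and Ctsl (1.46 and 1.33 against 0.42 and 0.80). The same held for Ctsz (1.47 and 0.91 against 0.07 and 0.25), Ctss (1.21 and 1.11 against 0.66 and 0.76) and Ctsa (0.30 and 0.75 against 0.11 and 0.31). For Ctsk, Ctsc and Ctsh the gap was not wider in both pairs. These libraries also differ in sequencing set and age.

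**Figure D3:**
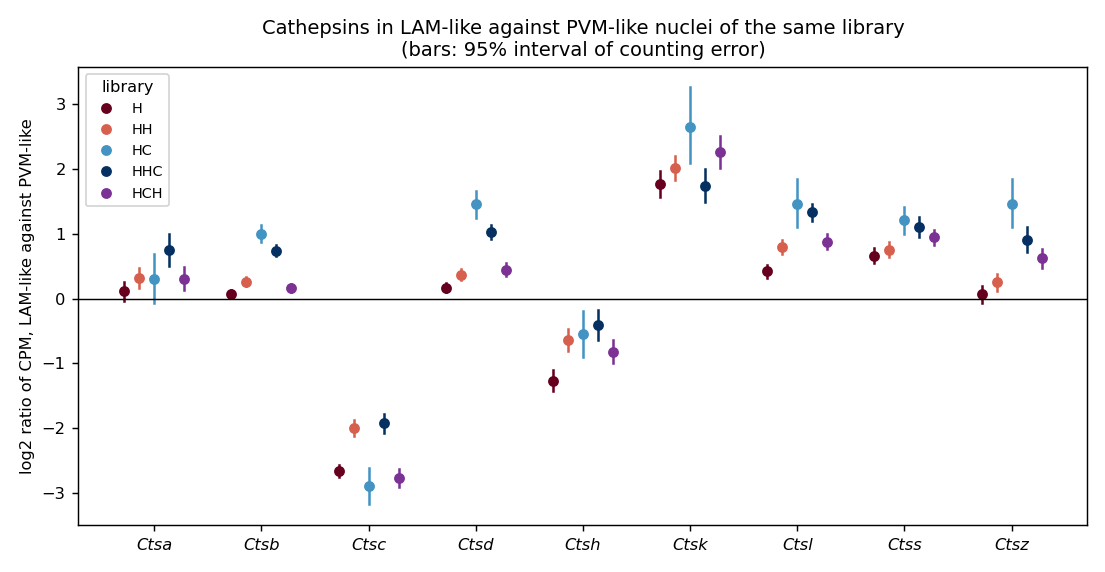
Log2 ratio of CPM between LAM-like and PVM-like nuclei of the same library for each cathepsin, with exact 95% intervals of counting error, in the 5 libraries with at least 840 or, in HC, 698 LAM-like nuclei. Ctsk lies above 1.7 and Ctsc below -1.9 in each library, and Ctsh lies below 0.

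In adipocyte-like nuclei, the lipid-storing cells of the tissue by their markers, 8 of 9 members were at least 2-fold higher in H against C (28.5% of all genes) and 8 when HH was set against CC (26.1%). HC had 4 above CC (5.24%), HHC had 8 above CCC (9.82%) and HCH had 8 above CCH (12.6%). The 4 in HC were Ctsd (log2 2.12), Ctsk (2.30), Ctss (3.26) and Ctsz (1.16), and Ctsb (0.98) and Ctsl (0.32) fell short of 2-fold there. HC was also set against C, which differs from it in age and sequencing set, an alternative chosen after seeing the data. In adipocyte-like nuclei Ctsb (314 against 115 CPM) and Ctsl (64.1 against 21.3) were then over 2-fold higher, and Ctsz (52.1 against 30.7) was not. In these nuclei Ctss had 3.35 CPM (C), 5.75 (CC) and 3.41 (CCC) on chow and 10.7 in CCH, and it had 148 (H), 146 (HH), 55.3 (HC), 185 (HHC) and 120 CPM (HCH) in the others. Ctsd was at 34.8, 44.2 and 34.6 CPM in C, CC and CCC and at 659 and 434 in H and HH. HC had 192 CPM, HHC 669, CCH 71.2 and HCH 324. All members but Ctsc (8) were higher in each of the 5 libraries after 12 or 25 weeks of high-fat diet than in the 4 others, as were 3.91% of all genes. For Ctsa that order rests on 23.5 CPM in HC beside 22.7 in CCH. For Ctsh it rests on 10.9 CPM in HC beside 8.11 in CC, and for Ctsl on 64.1 beside 51.3 in the same libraries. The intervals overlap for each of these members. TMM scaling shifted all adipocyte-like ratios of H against C by -0.55 and of HH against CC by -0.31 (log2). It left those counts of members at 8 and took the higher share of all 2-fold calls from 79.5 to 47.0% and from 70.9 to 54.7%. With TMM scaling 16.8% of all genes were at least 2-fold higher in H against C, and 2465 of 12310 genes in HH against CC.

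Ctsc again went the other way. Its levels were 211 (C), 161 (CC), 60.8 (CCC) and 134 CPM (CCH) in one set of libraries and 57.0 (H), 56.8 (HH), 70.9 (HC), 42.5 (HHC) and 114 CPM (HCH) in the other, which overlapped. It was at least 2-fold lower in H against C (log2 -1.89, -2.38 to -1.44), as were 7.34% of all genes, in HH against CC (-1.51; 10.7%) and in HC against CC (-1.19; 6.96%). In C the adipocyte-like level of Ctsc was above that of progenitor-like (47.9 CPM) and endothelial-like nuclei (63.7 CPM). In H the 3 classes lay between 56.5 and 72.8 CPM.

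In H against C, cathepsin RNA was also higher in the other classes. On chow some of it was highest there: in C, Ctsl had 68.0 CPM in mesothelial-like against 30.2 in macrophage-like nuclei. In endothelial-like nuclei, 8 of the 9 members were at least 2-fold higher in H than in C (14.6% of all genes), and Ctsd stood at 1466 CPM there in H, above the 1289 CPM of macrophage-like nuclei. The count was 8 of 9 as well in progenitor-like (19.4% of all genes), mesothelial-like (11.4%) and epithelial-like nuclei (17.0%), and Ctsc was the exception in each class. In HC against CC the counts were 4 in endothelial-like (5.89% of all genes), 4 in progenitor-like (6.17%) and 4 in mesothelial-like nuclei (3.94%), and 2 of the 6 members with enough UMIs in epithelial-like nuclei (16.0%). The median log2 ratios of the members in that comparison were 0.50, 0.87, 0.95 and 0.12, and Ctsc was 44.9 CPM in endothelial-like nuclei of HC against 108 in CC (log2 -1.27). That CC level was the highest of the 9 libraries, with 63.7 CPM in C, 21.4 in CCC and 58.4 in CCH. Ctsh, 1 of the 4 members called there, stood at 13.4 CPM in CC (11 UMIs) and 57.1 in C. Endothelial-like nuclei of CC held 9421 CPM of adipocyte markers, against 1899 (HH) to 4585 CPM (HC) in the other libraries. The other weight-loss pair, HHC against CCC, had 9 members higher in endothelial-like (8.95%; median log2 3.25) and 8 in progenitor-like nuclei (13.2%; 3.44), and under 50 mesothelial-like or epithelial-like nuclei in CCC or HHC. The progenitor-like members included Ctsc and left out Ctsh. The 97 endothelial-like nuclei of CCC held no UMI of Ctsk, 1 of Ctss, 3 of Ctsa and 4 each of Ctsc and Ctsz. For Ctsc the intervals of the 2 levels overlap (34.0 to 82.1 against 5.83 to 54.8 CPM). HH had 8 above CC in endothelial-like (16.3%), progenitor-like (25.1%) and mesothelial-like nuclei (19.9%). HCH had 7, 8 and 8 above CCH in these classes (10.6%, 1893 of 14576 genes and 9.49%) and 9 in epithelial-like nuclei (9.71%). Levels in other classes were therefore set beside macrophage RNA found in the same nuclei. In endothelial-like nuclei of H, 12 leukocyte genes that were not used as markers summed to 9.42% of their macrophage-like level, with 1.10% for the lowest gene and 83.4% for the highest. The 3 C1q genes, macrophage markers themselves, summed to 71.6%, and the cathepsins had a median of 77.7%. In adipocyte-like nuclei of H the same values were 3.09% for the 12 genes, 23.0% for the highest of them, 26.5% for C1q and 26.7% for the cathepsin median. In those of C they were 1.30%, 9.33%, 7.86% and 28.3%.

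**Figure D4:**
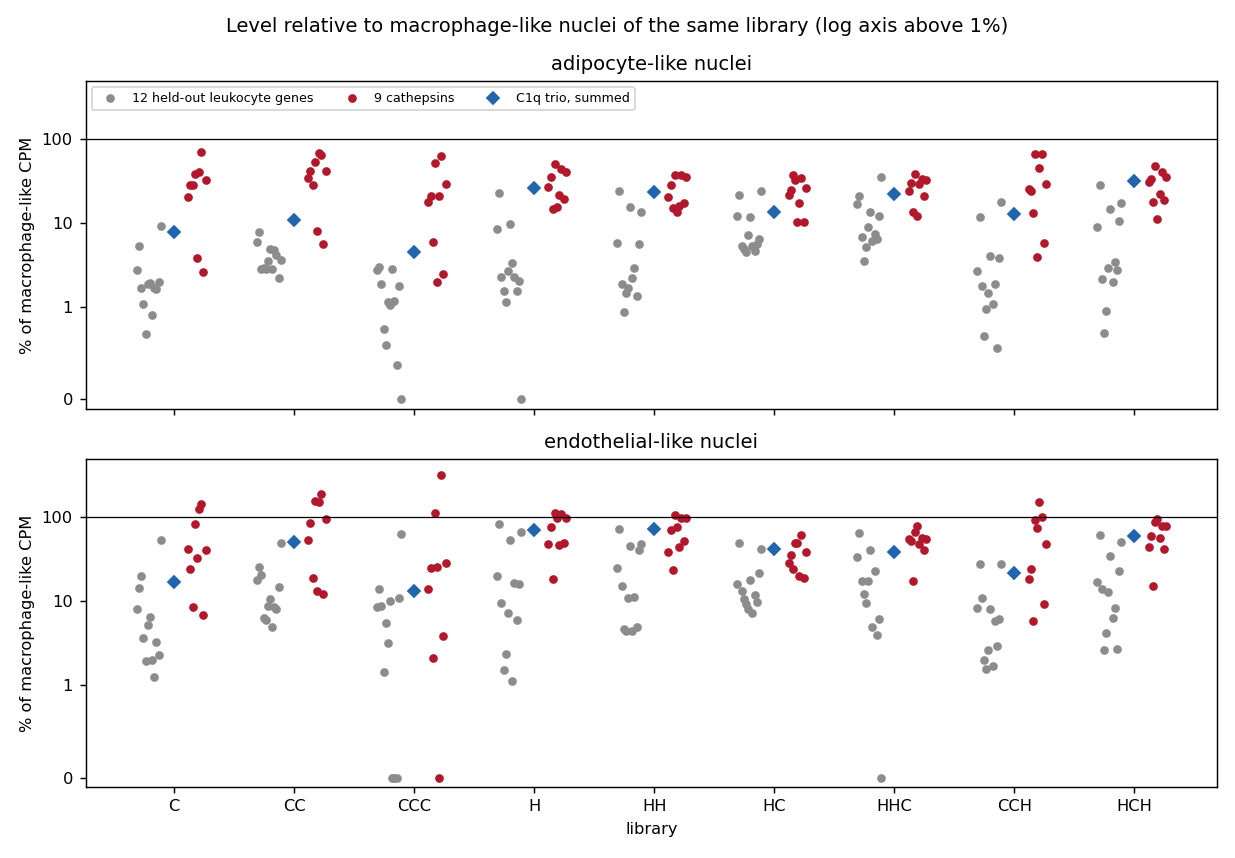
CPM in adipocyte-like (top) and endothelial-like nuclei (bottom) as a percentage of the CPM in macrophage-like nuclei of the same library (log axis above 1%), for the 9 cathepsins (red), the 12 leukocyte genes (grey) and the summed C1q genes (blue). In H the cathepsins of endothelial-like nuclei have a median of 77.7%, next to 71.6% for C1q.

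The adipocyte-like counts were recomputed after subtracting macrophage RNA. When the share given by the 12 leukocyte genes was subtracted, the count of members at least 2-fold higher in H against C stayed at 8, and it was 8, 3, 8 and 8 in the 4 later comparisons. All 9 members kept a level above 3 UMIs there, and under the same rule 26.0, 26.3, 4.07, 7.30 and 12.1% of all genes were 2-fold higher. With the share of the C1q genes the 5 counts were 3, 3, 1, 4 and 0, in the same order, of only 4, 4, 7, 6 and 4 members with a level left (all genes: 19.9, 21.5, 4.49, 5.01 and 7.52%). With the share of the highest of the 12 genes they were 4, 3, 0, 0 and 4, of 5, 4, 5, 1 and 5 with a level left (all genes: 21.5, 20.3, 2.82, 3.23 and 9.82%). A member with no level left counts as not higher, so a low count here is also one of few members measured. With the C1q share, 76.3, 89.1, 95.3, 94.3 and 87.9% of all genes had a level left. With the highest of the 12 genes, 78.0, 88.8, 91.4, 88.3 and 89.6% did. Ctsc, Ctsh, Ctsk and Ctss had no level left above 3 UMIs in H under either of these harsher subtractions, and Ctsd, Ctsl, Ctsb and Ctsz did. The part of carried-over macrophage RNA in the higher cathepsin levels of other classes was not tested beyond these subtractions.

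Over whole libraries, which mix a changed make-up with changed levels, 8 members were at least 2-fold higher in H against C (26.1% of all genes), as were 8 when HH was set against CC (31.7%). HC had 5 above CC (11.1%), HHC 8 above CCC (12.5%) and HCH 7 above CCH (13.6%). Macrophage-like nuclei held 12.7% of the UMIs of C and 60.4% of those of H. They held 64.7% of the Ctss UMIs in C but 20.3% of those of Ctsd, 13.9% of Ctsk and 11.1% of Ctsl. In H they held 77.1% of Ctss, 60.6% of Ctsd, 73.8% of Ctsk and 59.8% of Ctsl. Each library was then split into macrophage-like, adipocyte-like and other nuclei. In this split the kinds of macrophage, the mix of classes among the other nuclei and carried-over RNA all count with the levels. With the shares of H and the levels of C, the log2 ratio of Ctsd would be 0.48, and with the levels of H and the shares of C 4.24, beside 4.50 as counted. For Ctsh the same values were 1.46, 0.98 and 1.66. For Ctsc they were 1.19, -0.88 and 0.35.

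Over the 9 libraries, in macrophage-like nuclei, Pearson r of log2(CPM + 1) was 0.99 between Ctsb and Ctss and 0.99 between Ctsd and Ctsk. Among the 7 members other than Ctsc and Ctsh it was 0.89 to 0.99. Ctsc ran against these 7 (-0.43 with Ctsa to -0.74 with Ctsd), and Ctsh had 0.12 (Ctsd) to 0.48 (Ctsa) with them. These are descriptions over 9 libraries that share diets and sets, with no test. Among 7254 genes with at least 20 CPM on average, Ctsk was most like Creg1 (r = 0.998), Zfand2a and Syngr1. Ctsd was most like Galns, Igf2r and S1pr2, Ctss like Mpeg1, Atp6v1b2 and Gusb, and Ctsb like Ctss, Edem2 and Gusb. Ctsl was most like Acp5, Vat1 and Bnip3l, Ctsz like Cd63, Pianp and Gusb, and Ctsa like Mfsd4a, Gm16541 and Pebp1. Ifi203 and Gm10134 were among the genes most like Ctsc, and Gm31243, Lrrc57 and Gm8369 were most like Ctsh.

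Genes that mature, sort or block cathepsins were counted in the same macrophage-like nuclei. Of the 10 maturation and sorting genes, 6 were at least 2-fold higher in H against C and none 2-fold lower, and the counts were 6, 3, 7 and 5 in the 4 later comparisons. The shares of all genes for the 5 are the 28.3, 28.3, 10.6, 16.0 and 18.0% given above. Igf2r, the large mannose 6-phosphate receptor that brings new hydrolases to lysosomes, had 16.5 CPM in C and 427 in H (log2 4.69, 4.33 to 5.07), and 23.2 in CC against 218 in HC (3.23). Psap, the precursor of the saposins that help to break down sphingolipids, had 550 CPM in C and 2184 in H, and 1806 in HC against 387 in CC. The smaller receptor M6pr stood at 92.7 CPM in H against 28.1 in C. The enzymes that make the mannose 6-phosphate tag were higher too in H against C: Gnptab (137 against 43.9 CPM), Gnptg (23.5 against 10.5) and Nagpa (21.1 against 8.40). Gnptab was also higher in HC than in CC (179 against 74.5 CPM).

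Of 11 listed inhibitors, 10 were among the genes counted and 4 had enough UMIs in H against C, of which 3 were at least 2-fold higher. The counts were 4 of 4 in HH against CC and 2 of 4 in HCH against CCH, with the same shares of all genes beside them. Cst3, the secreted cystatin C, had 71.2 CPM in C and 418 in H. Cstb, the cytosolic cystatin B, had 3.94 CPM in C (15 UMIs) and 95.3 in H, and Serpinb6a 139 and 321 CPM. In HC against CC none of the 3 inhibitors with enough UMIs was 2-fold higher. In HHC against CCC, Cst3 (232 against 105 CPM) and Cstb (47.6 against 12.2) were, and Serpinb1a was 2-fold lower on 36 and 5 UMIs (log2 -1.11, -2.47 to 0.59). Of the 4 MiT transcription factors, which drive lysosomal genes, none was 2-fold different in H against C or in HCH against CCH. In HH against CC, Tfe3 was 2-fold higher (82.4 against 37.2 CPM). In HC against CC, Tfeb (327 against 136 CPM) and Mitf (3261 against 1294 CPM) were 2-fold higher. In HHC against CCC none of the 4 was 2-fold different (Tfeb log2 0.47, Mitf 0.85). Of 13 other cathepsin genes, 3 had enough UMIs in H against C and none was 2-fold different, and Ctsf was lower in HC than in CC (5.77 against 20.2 CPM, 24 and 33 UMIs).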

How the data were processed

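Nuclei were profiled with 10x Genomics 3′ chemistry. The deposited matrices hold raw UMI counts per gene and barcode that Cell Ranger called as a cell; per the labels and the methods, the authors used Cell Ranger 6.1.2 with the mm10 genome (GRCm38) and counted intronic reads, and analysed them with Seurat 4.1.0. The study's own SoupX estimate called for no correction and was not repeated. Reading introns weights unspliced RNA, so levels are not those of whole cells.

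Nuclei with 500 to 3000 genes and at most 40000 UMIs were kept, and nuclei with the highest Scrublet scores (scanpy 1.11.5) were removed at 0.8% per 1000 nuclei. Mitochondrial genes and Malat1 were left out. Each library was clustered alone (Leiden, leidenalg 0.10.2, resolution 1, 30 components, 2000 variable genes, no cathepsin). A cluster was named from at least 3 markers of 1 of 13 classes, and a nucleus of it counted if it showed at least 3 itself. Kinds of macrophage needed 3 markers of their own and more of them than of any other kind. A first gate on single nuclei failed in CC, and the naming limits were set after the data, with member levels in view. CPM is summed UMIs over the UMIs of a class with at least 50 nuclei (20 for kinds). Ratios used at least 20 UMIs over both libraries, and a count of 0 was set to 3. Calls are ratios of at least 2. With 1 library per group the design has no test. All members are named, as are genes of the other lists at least 2-fold different in H against C or HC against CC, and the 3 genes most like each member, of which 1 is not reported here. The members and lists were chosen with earlier results of these data known. Alternatives covered markers, clustering, unnamed clusters, filters, TMM factors (edgeR 4.0.16), control libraries and carry-over. On simulated counts for macrophage-like nuclei of H against C (14946 genes), 99% of 4-fold raised genes were called and 2.20% of unchanged genes passed 2-fold. For HHC against CCC (13860 genes) it was 94% and 8.14%. The simulation drew Poisson counts from 1 pooled profile. Its rates therefore cover counting error only and leave out differences between mice, pools and carry-over. Python 3.11.15 was used.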

Additional observations from a re-analysis of the deposited data

Results flagged for a closer look

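Ctsh went in opposite directions in 2 classes of the same comparison. In H against C it was slightly lower in macrophage-like nuclei (log2 ratio -0.16, interval -0.28 to -0.03) and higher in adipocyte-like nuclei (1.85, 1.00 to 2.63, on 24.2 against 6.70 CPM). Its adipocyte-like level in H was 15.4% of the macrophage-like level, below the 26.5% of the C1q genes, and no level was left there under either harsher subtraction. Within PVM-like and NPVM-like nuclei Ctsh was higher in H than in C (0.71 and 0.97). It also went in opposite directions in macrophage-like nuclei after 12 and 25 weeks of high-fat diet, at -0.16 in H against C and 1.19 in HH against CC. With HH set against C the second value was 0.40. With 1 library per group these differences were not tested. No group had enough libraries to look for outlying samples.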

How the results depend on the processing

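Of the counts of members at least 2-fold higher, 109 of 119 recomputed values lay within 1.5 times the reported count. The 10 that did not were all in adipocyte-like nuclei after the 2 harsher subtractions of macrophage RNA, both chosen after seeing the data: with the C1q genes 3 (H against C), 3 (HH against CC), 1 (HC against CC), 4 (HHC against CCC) and 0 (HCH against CCH), and with the highest leukocyte gene 4, 3, 0, 0 and 4. Of 1026 recomputed ratios of single members, 46 ended or gained a 2-fold call, and 290 moved beyond their counting interval, including 57 of 135 without the upper limit on genes and 50 of 90 with the gate on single nuclei. Those that reversed were, after the C1q subtraction, Ctsb in HH against CC (log2 -0.44), Ctsa in HHC against CCC (-1.98), and Ctsb (-1.30) and Ctsz (-0.52) in HCH against CCH. After the subtraction of the highest leukocyte gene they were Ctsb in HH against CC (-0.82), Ctsz in HC against CC (-2.16) and Ctsa in HCH against CCH (-0.27). Ctsh in adipocyte-like nuclei of HHC against CCC (2.40) became -0.17 with doublets kept and -0.14 with the gate on single nuclei, an alternative chosen after seeing the data. The cause was not tested. HC and HHC were also set against C, likewise chosen later. For HC, 21 ratios then moved beyond their counting interval and 6 did not, and 5 member calls changed, those of Ctsb, Ctsl and Ctsz in adipocyte-like nuclei among them. For HHC, 15 moved and 12 did not, and 1 call changed. Ctsc in adipocyte-like nuclei of HHC then had a log2 ratio of -2.31. With unnamed clusters near the macrophage-like class added, also chosen later, 9 of 45 ratios moved beyond their counting interval, 7 of them in HHC against CCC. TMM factors moved the higher share of all 2-fold calls by over 10 points in 4 cases: the 2 adipocyte-like ones given above, adipocyte-like HCH against CCH (80.3 to 68.3%) and whole libraries of HH against CC (71.5 to 59.9%). The number of UMIs limits Ctsk on chow and all members in CCC. No paired analysis was possible because each group has 1 library and the labels give no replicate numbers.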
